A study of Rattus norvegicus with 8 samples.

Results

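The MAP kinase phosphatases were examined in the cervix of pregnant Sprague-Dawley rats as a set of 10 listed genes: Dusp1, Dusp2, Dusp4, Dusp5, Dusp6, Dusp7, Dusp8, Dusp10, Dusp14 and Dusp16. All 10 had a row among the 29884 gene symbols of the count table, and all 10 passed the filter on low counts with which 16117 genes were tested. The animals were wild-type by label and received a single intraperitoneal injection on gestational day 17. The LPS group received lipopolysaccharide, the main surface glycolipid of Gram-negative bacteria, at 100 µg/kg, and the PBS group received the same volume of phosphate-buffered saline. Cervical tissue was taken 12 hours later, and RNA from 4 biological replicates per group was sequenced. The labels give no age, and pieces of cervix hold many cell types, so that fewer cells of a type and less RNA per cell cannot be told apart.

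MAP kinases are switched on when an upstream kinase phosphorylates a threonine and a tyrosine in their activation loop, and the dual-specificity phosphatases switch them off by removing both phosphates. The family falls into nuclear enzymes whose genes are switched on by the signal itself (Dusp1, Dusp2, Dusp4 and Dusp5), cytoplasmic enzymes that prefer ERK (Dusp6 and Dusp7), and enzymes that prefer JNK and p38 (Dusp8, Dusp10 and Dusp16). Dusp14 is a small enzyme without the kinase-docking domain of the others. In inflamed tissue some of these enzymes, but not all, are known to limit how long the signals from LPS receptors drive cytokine messages.

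Total counts ran from 33191039 (PBS replicate 4) to 40634384 (PBS replicate 2), and 3 counts corresponded to 0.0734 to 0.0899 CPM, counts scaled to a library of 1000000 with TMM factors. Messages of smooth muscle, fibroblasts, and squamous and simple epithelium were present in every library, and the lists used hold no marker that tells cervix from neighbouring tract. PBS replicate 4 held the least summed smooth muscle message of its group (4526 CPM, against 10286 to 12570 CPM in the other 3). Of the other marker lists, 4 of 7 fibroblast markers rose, beside 9.49% of all tested genes called higher by edgeR. Those that fell were 2 of 6 tested squamous epithelial, 1 of 6 endothelial and 4 of 5 tested red cell markers, beside 7.45% of all tested genes. Among 7 simple epithelial markers 0 were called by edgeR, with 2 lower at an unadjusted p under 0.05. DESeq2 called 2 of the 7 lower, beside 2089 of all 16117 genes. With 1 library left out, the numbers that fell ran from 1 to 2 squamous epithelial, 0 to 2 endothelial and 0 to 4 red cell markers. All values below are TMM-scaled CPM for levels and LPS minus PBS on the log2 scale for differences. CPM is not corrected for transcript length, so levels are compared between libraries and not between genes.

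Of the 10 phosphatases, Dusp2 and Dusp4 rose after LPS, Dusp8 fell, and 7 did not pass the test (edgeR's quasi-likelihood test, Benjamini-Hochberg adjusted over all genes). The 3 calls are to be read against the 16.9% of all tested genes that were called (9.49% higher and 7.45% lower). The 3 called genes were also those in which the 4 LPS and 4 PBS libraries did not overlap, a pattern seen in 23.4% of all tested genes. The median log2 fold change of the 10 was -0.043, beside 0.010 over all genes tested. With 1 library left out, between 1 and 2 phosphatases rose and between 0 and 1 fell. A single rise, that of Dusp2, was left on removal of any of the 4 PBS libraries or of LPS libraries 3 or 4, taken one at a time. The fall of Dusp8 ended on removal of PBS libraries 2, 3 or 4 or of LPS libraries 1, 2 or 3.

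**Figure D1:**
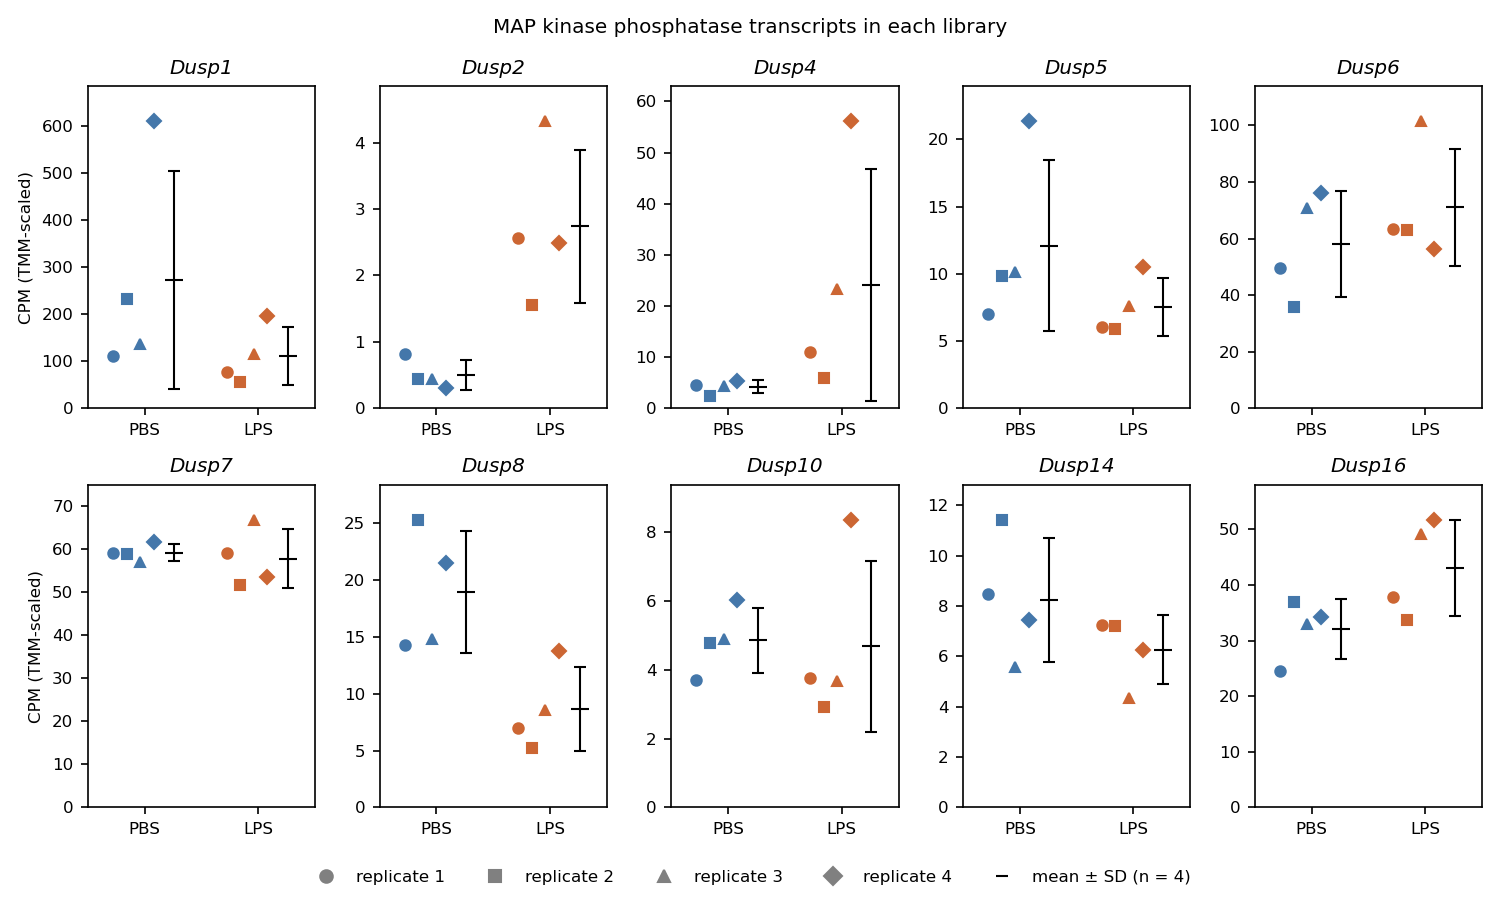
Level of each phosphatase transcript (vertical axis, TMM-scaled CPM on a linear scale from 0) in the 4 PBS and 4 LPS libraries, with a symbol for each replicate and the mean ± SD beside them. Dusp2 and Dusp4 lie higher in every LPS library than in any PBS library, Dusp8 lies lower, and the other 7 overlap, with Dusp1 and Dusp5 highest in PBS replicate 4.

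Dusp2, a nuclear phosphatase known from activated leukocytes, had the lowest adjusted p of the 10. It stood at 0.818, 0.446, 0.444 and 0.300 CPM in PBS replicates 1 to 4 and at 2.57, 1.56, 4.33 and 2.49 CPM in LPS replicates 1 to 4. Every LPS library lay above every PBS library, with the highest value in LPS replicate 3. These levels rest on few reads, 10 to 32 counts in PBS and 61 to 171 counts in LPS. The mean rose from 0.502 ± 0.221 to 2.74 ± 1.16 CPM (SD, n = 4 per group). This is a log2 difference of 2.44 (SE 0.42, edgeR adjusted p = 0.0069), or 5.42-fold. It was called in each of the 8 fits with a library left out (2.13 to 2.77).

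The stretch before the Dusp2 start site is shown because this member was called in every fit with a library left out. The sequences here and below are the 250 bases before the RefSeq start site on build GRCr8, read 5′ to 3′ on the gene's strand, while the counts were made on mRatBN7.2. Capitals mark matches on either strand to any of 5 motifs: the cyclic AMP response element TGACGTCA, its shorter core TGACG (which overlaps the former), the AP-1 motif TGACTCA, the CArG box of serum response factor, and the NF-kB consensus. In Dusp2 (chr3:135009386-135009635, plus strand) the only match was 1 TGACG core, on the reverse strand. That core occurs in 18.2% of the 33469 RefSeq promoter windows of this length.
Dusp2: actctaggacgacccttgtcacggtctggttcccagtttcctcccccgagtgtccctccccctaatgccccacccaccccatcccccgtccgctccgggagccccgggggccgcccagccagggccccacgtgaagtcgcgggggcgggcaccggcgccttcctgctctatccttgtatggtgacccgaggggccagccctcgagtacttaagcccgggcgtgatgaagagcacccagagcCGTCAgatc

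The 3 transcripts most like Dusp2 in their pattern over the 8 libraries, among genes averaging 1 CPM or more, were Isg15, Gbp7 and Ifit3. Their mean-centred log2 levels differed from those of Dusp2 by a root mean square of 0.20, 0.25 and 0.25. Isg15, a ubiquitin-like modifier, was at 19.2 to 40.3 CPM in PBS and 100.9 to 190.1 CPM in LPS. The 3 were selected for this likeness, so the libraries in which they are high restate the selection.

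Dusp4, a nuclear phosphatase of ERK and JNK whose gene responds to ERK activity, had a log2 difference of like size but varied more among LPS libraries. PBS replicates 1 to 4 held 4.496, 2.43, 4.44 and 5.46 CPM, and LPS replicates 1 to 4 held 11.02, 5.91, 23.2 and 56.3 CPM. The groups did not overlap, although LPS replicate 2 came close to PBS replicate 4. The highest LPS library held 9.52 times the lowest, a wider spread than in all but 3.07% of tested genes. The mean went from 4.20 ± 1.27 to 24.1 ± 22.6 CPM (SD, n = 4 per group), and the log2 difference was 2.52 (SE 0.65, edgeR adjusted p = 0.0321). Without LPS replicate 4 it was 1.68 (adjusted p = 0.0505). Removal of any PBS library or of LPS library 3 also ended the call, as did both limma-voom fits and the fit with no filter on low counts.

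Markers of infiltrating cells were compared over the same libraries, in which edgeR called 9.49% of all tested genes higher. All 9 tested neutrophil markers (of 10 listed) rose, and their sum was 55.5 to 91.5 CPM in PBS and 489.7 to 1773 CPM in LPS. Within LPS the neutrophil sum was lowest in replicate 2 and highest in replicate 4, as Dusp4 was. Dusp1, Dusp5, Dusp8, Dusp10 and Dusp16 had the same highest and lowest LPS library, so this order was not particular to Dusp4. LPS replicate 4 was the highest LPS library for 6 of the 10 phosphatases, against 24.3% of all genes tested. Of 10 tested macrophage and monocyte markers (of 11), 7 rose, with sums of 839.4 to 1304 CPM in PBS and 1662 to 2496 CPM in LPS, where replicate 2, lowest for Dusp2 and Dusp4, was highest. Among 9 tested T, B and natural killer cell markers (of 11), Cd8a alone rose, a call that outlasted only the removal of PBS library 3 or LPS library 3, and the sums overlapped (80.4 to 136.9 CPM in PBS, 76.0 to 124.8 CPM in LPS). No marker of these lists was at 0 in all 8 libraries, and the scavenger receptor Marco was at 0 in all PBS libraries. The part of these cells in the values of Dusp2 and Dusp4 was not tested.

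Dusp1, the classical stress- and glucocorticoid-induced phosphatase of p38 and JNK, did not pass the test. It stood at 110.6, 233.3, 136.6 and 611.9 CPM in PBS replicates 1 to 4 and at 78.0, 56.7, 115.7 and 196.6 CPM in LPS replicates 1 to 4. The groups overlapped, and PBS replicate 4 stood far above the other 7 libraries. Among PBS libraries the highest held 5.53 times the lowest, and 4.52% of tested genes had a wider spread. The means were 273.1 ± 232.0 and 111.7 ± 61.6 CPM (SD, n = 4 per group), with a log2 fold change of -1.29 (SE 0.59, edgeR adjusted p = 0.169). Without PBS replicate 4 the value was -0.52 (adjusted p = 0.471).

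Dusp5, a nuclear phosphatase that acts on ERK alone, showed the same order of libraries at both ends. PBS replicates 1 to 4 held 7.00, 9.83, 10.2 and 21.4 CPM, and LPS replicates 1 to 4 held 6.08, 5.91, 7.65 and 10.5 CPM. Its highest PBS library was again replicate 4, its highest LPS library replicate 4 and its lowest LPS library replicate 2, as for Dusp1. The log2 fold change was -0.68 (SE 0.35, edgeR adjusted p = 0.218), and -0.25 (adjusted p = 0.541) without PBS replicate 4.

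The sequences before Dusp1 (chr10:17184603-17184852, plus strand) and Dusp5 (chr1:262543524-262543773, plus strand) are shown because these members were high in the same libraries. Dusp1 held 1 full TGACGTCA, 124 to 117 bases before the start site, and a further TGACG core 172 to 168 bases before it. Dusp5 held 2 adjoining CArG boxes, at 82 to 73 and 72 to 63 bases, and a TGACG core on the reverse strand at 55 to 51 bases. A full TGACGTCA was in 1.59% of all 33469 windows and a CArG box in 1.5%. These are matches of letters and not measured sites.
Dusp1: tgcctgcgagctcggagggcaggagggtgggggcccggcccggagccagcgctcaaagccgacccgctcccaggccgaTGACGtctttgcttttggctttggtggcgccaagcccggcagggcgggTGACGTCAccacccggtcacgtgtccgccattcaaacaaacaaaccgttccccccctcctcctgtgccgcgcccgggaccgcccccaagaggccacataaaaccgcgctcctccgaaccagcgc
Dusp5: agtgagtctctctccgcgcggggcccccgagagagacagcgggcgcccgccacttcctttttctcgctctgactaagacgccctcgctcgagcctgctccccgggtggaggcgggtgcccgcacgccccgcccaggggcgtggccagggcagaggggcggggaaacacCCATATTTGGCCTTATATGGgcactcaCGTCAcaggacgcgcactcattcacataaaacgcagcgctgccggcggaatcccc

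Of the phosphatases, 9 had a window in the RefSeq promoter table, Dusp14 with 3 windows, and Dusp4 had none. Beside those printed, a TGACG core was found before Dusp16 and in 1 window of Dusp14, which also held the AP-1 motif TGACTCA (4.05% of all windows). The NF-kB consensus, in 6.33% of all windows, had no match before any of the 9, and Dusp6, Dusp7, Dusp8 and Dusp10 held none of the 5 motifs. GC content of the members' windows ran from 52.8% to 84.4% (Dusp7), beside a median of 51.2% over all windows.

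The libraries in which Dusp1 and Dusp5 were high were also examined for transcripts induced by ERK signalling. Of 16 such transcripts listed, PBS replicate 4 was the highest PBS library for 11, against 28.6% of all genes tested, and of the 10 phosphatases it was the highest for 6. Among LPS libraries, replicate 4 was the highest for 8 of the 16 transcripts and replicate 3 for 7, against 24.3% and 28.1% of all genes tested. Fos was at 40.98, 75.8, 82.5 and 293.2 CPM in PBS replicates 1 to 4 and at 49.99 to 100.5 CPM in LPS. Egr1 was at 25.1, 176.1, 96.3 and 484.9 CPM in PBS replicates 1 to 4 and at 21.1 to 118.3 CPM in LPS. In both, PBS replicate 4 stood highest and LPS replicate 4 was the highest LPS library, and these 2 genes were chosen for display after their values were seen. Within LPS, replicate 2 was the lowest library for 8 of the 10 phosphatases, against 24.6% of all genes tested, and for 8 of the 16 transcripts. What sets these libraries apart was not tested.

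**Figure D2:**
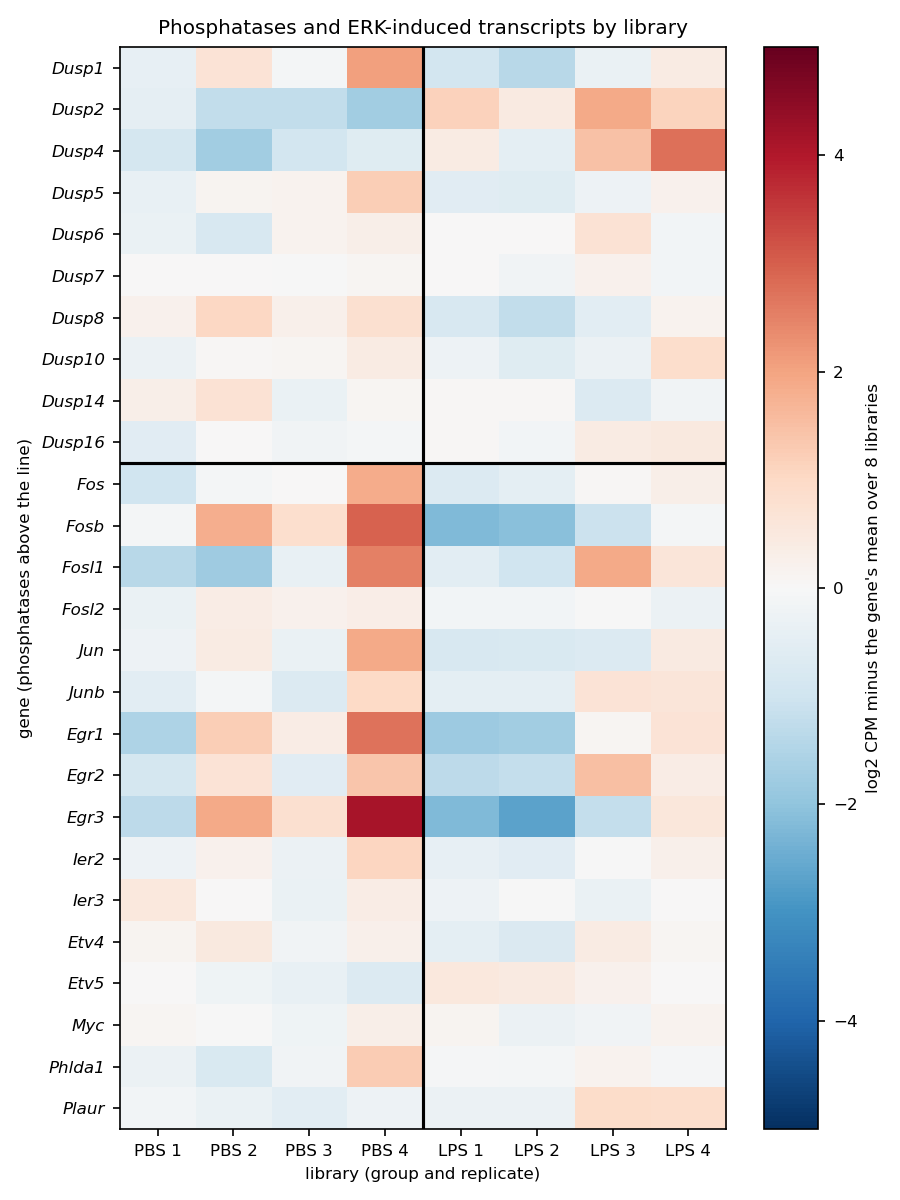
Colour shows log2 CPM minus the gene's mean over 8 libraries for the 10 phosphatases (above the line) and 16 ERK-induced transcripts (below it), with PBS libraries left of the vertical line and LPS libraries right of it. Dusp1 and Dusp5 are highest in PBS replicate 4, as are 11 of the 16 ERK-induced transcripts among PBS libraries, while Dusp4 is highest in LPS replicate 4.

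As a list, the 16 ERK-induced transcripts held 1 that rose and 1 that fell, with a median log2 fold change of -0.31. Of all tested genes, 9.49% were called higher and 7.45% lower. Fosb, an AP-1 subunit, fell from 13.3 ± 11.7 to 1.72 ± 1.28 CPM (log2 difference -2.95, n = 4 per group, edgeR adjusted p = 0.0301), with overlapping groups. Its call ended on removal of PBS libraries 2 or 4 or of LPS libraries 1, 2 or 3, and in both limma-voom fits. Etv5, an ETS factor downstream of fibroblast growth factor signals, rose from 12.4 ± 2.60 to 19.0 ± 2.94 CPM (0.62, adjusted p = 0.0434). Removal of PBS libraries 2, 3 or 4 or of LPS libraries 1, 2 or 3 ended that call, as did no filter on low counts.

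A list of 9 glucocorticoid-related genes held 6 that glucocorticoids induce, as they do Dusp1 (Tsc22d3, Fkbp5, Per1, Zbtb16, Sgk1 and Klf9), the receptor Nr3c1, and the enzymes Hsd11b1 and Hsd11b2 that interconvert active and inactive hormone. Of the 9, 3 fell in LPS by edgeR, all of them induced genes, beside 7.45% of all genes, and 0 rose. At an unadjusted p under 0.05, 5 were lower and 0 higher, a threshold for which no share of all genes is given here. With DESeq2 5 were lower and 0 higher, beside 2089 of all 16117 genes called lower by DESeq2. The median of the 9, which is the value of the uncalled Hsd11b1, was -0.94. Fkbp5, a chaperone of the glucocorticoid receptor, fell from 134.1 ± 25.9 to 57.5 ± 12.6 CPM (log2 difference -1.22, n = 4 per group, edgeR adjusted p = 0.00436). The kinase Sgk1 fell by 1.54 (adjusted p = 0.00553), and Tsc22d3, which encodes the anti-inflammatory protein GILZ, fell by 1.06 (adjusted p = 0.0419). The call of Tsc22d3 ended on removal of any PBS library or of LPS libraries 1 or 2, and with no filter on low counts. In all 3 genes the groups did not overlap, unlike Dusp1. PBS replicate 4, highest for Dusp1, was the lowest PBS library for Tsc22d3 (95.7 CPM), the second highest for Fkbp5 (148.3 CPM) and the third highest for Sgk1 (145.8 CPM). The part of glucocorticoids in the values of Dusp1 was not tested.

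Of the cytoplasmic ERK phosphatases, Dusp7 had the narrowest spread of the 10 members in both groups. It held 59.2, 58.9, 57.0 and 61.7 CPM in PBS replicates 1 to 4 and 59.2, 51.6, 66.9 and 53.5 CPM in LPS replicates 1 to 4. In PBS its highest library was 1.08 times its lowest, a narrower spread than in 94.96% of tested genes. Its log2 fold change was -0.034 (SE 0.090, edgeR adjusted p = 0.828). Dusp6, whose message is a usual readout of ERK activity, held 49.6, 35.8, 70.9 and 76.0 CPM in PBS replicates 1 to 4 and 63.2, 63.2, 101.7 and 56.3 CPM in LPS replicates 1 to 4. The groups overlapped, and the log2 difference was 0.29 (SE 0.27, edgeR adjusted p = 0.489), or 0.069 without LPS replicate 3.

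Sprouty and Spred proteins restrain the same ERK pathway upstream of Dusp6. Of 6 tested (of 7 listed) 1 rose and 1 fell, with a median of 0.065, beside 9.49% of all tested genes called higher and 7.45% lower. Spred3 rose from 18.5 ± 4.999 to 43.8 ± 24.3 CPM (log2 difference 1.25, n = 4 per group, edgeR adjusted p = 0.0418). It was highest in LPS replicate 3, as Dusp6 was, at 80.2 CPM, and its value without that library was 0.78. Its call ended on removal of PBS libraries 1, 2 or 4 or of LPS library 4, with no filter on low counts and in both limma-voom fits. Spred2 fell by 0.47 (adjusted p = 0.0362), and here removal of PBS libraries 2, 3 or 4 or of LPS libraries 2 or 3 ended the call.

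Among the phosphatases that prefer JNK and p38, Dusp8 fell. It stood at 14.3, 25.3, 14.8 and 21.6 CPM in PBS replicates 1 to 4 and at 7.01, 5.196, 8.58 and 13.8 CPM in LPS replicates 1 to 4. Every LPS library lay below every PBS library, with LPS replicate 4 just under PBS replicate 1. The mean fell from 19.0 ± 5.37 to 8.64 ± 3.69 CPM (SD, n = 4 per group). The log2 difference was -1.14 (SE 0.31, edgeR adjusted p = 0.0404). With 1 library left out the value ran from -1.45 to -0.96, and the test was passed without PBS replicate 1 or without LPS replicate 4.

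Dusp8 is known from brain, heart and muscle, and markers of smooth muscle were lower in LPS as well. Of 8 smooth muscle markers 6 fell, beside 7.45% of all tested genes. Their sums were 4526 to 12570 CPM in PBS and 3762 to 5498 CPM in LPS. The number that fell was 8 on removal of PBS library 4, 4 on removal of LPS library 4, 2 on removal of PBS library 1 or LPS library 2, 1 on removal of PBS library 3 or LPS library 3, and 0 on removal of PBS library 2 or LPS library 1. No marker of this list was at 0 in all 8 libraries. In PBS replicate 4, which had the least smooth muscle message of its group, Dusp8 was at 21.6 CPM, the second highest PBS value. The part of these cells in the fall of Dusp8 was not tested.

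Dusp16, a JNK phosphatase, held 24.4, 37.0, 32.9 and 34.2 CPM in PBS replicates 1 to 4 and 37.8, 33.7, 49.1 and 51.7 CPM in LPS replicates 1 to 4. LPS replicate 2 alone reached into the PBS range. The log2 fold change was 0.42 (SE 0.17) with an unadjusted p of 0.0369 and an edgeR adjusted p of 0.126. Dusp10, which acts on p38 and JNK, held 3.70, 4.78, 4.90 and 6.02 CPM in PBS replicates 1 to 4 and 3.75, 2.92, 3.67 and 8.36 CPM in LPS replicates 1 to 4. Its LPS libraries lay on both sides of the PBS range, and the log2 fold change of -0.052 (SE 0.34, adjusted p = 0.935) was -0.49 without LPS replicate 4.

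Dusp14 held 8.48, 11.4, 5.57 and 7.43 CPM in PBS replicates 1 to 4 and 7.24, 7.22, 4.33 and 6.26 CPM in LPS replicates 1 to 4. The groups overlapped and the log2 fold change was -0.39 (SE 0.25, edgeR adjusted p = 0.313). The table also lists Dusp14l1, a copy of this gene, with 0 to 10 counts per library against 171 to 462 for Dusp14, and reads shared by the copies could not be told apart.

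**Figure D3:**
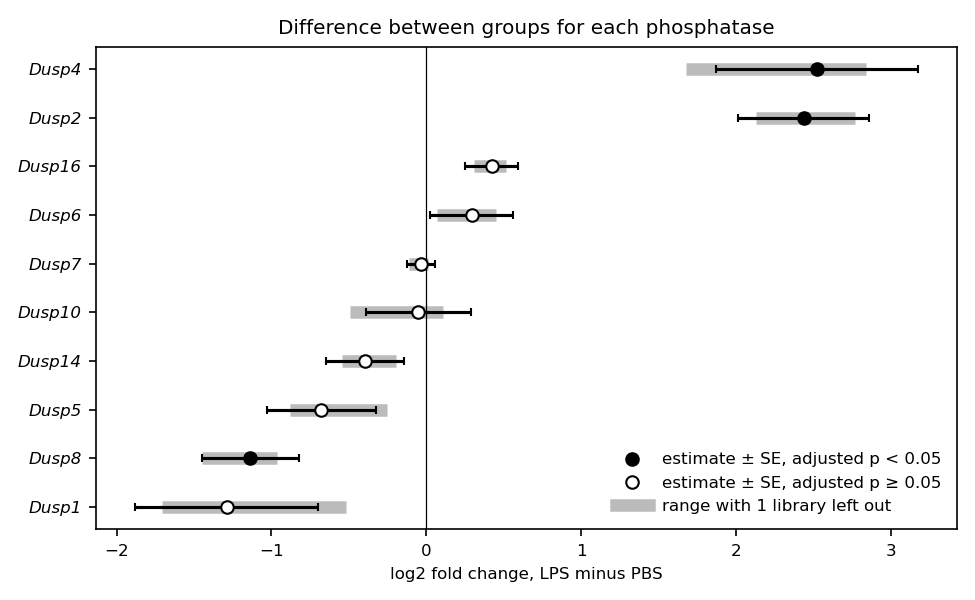
Log2 fold change, LPS minus PBS, of each phosphatase (circles, with bars of ± 1 SE, n = 4 per group, filled where the adjusted p passed the threshold) and the range of the value when 1 library is left out (grey). Dusp2 and Dusp4 lie at 2.44 and 2.52 and Dusp8 at -1.14, while the wide grey bar of Dusp1 ends at -0.52 without PBS replicate 4.

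Around the phosphatases, 118 genes of the 11 pathway lists were tested (127 listed), of which 12 rose and 13 fell, or 21.2% called beside 16.9% of all genes, with a median of -0.083. With 1 library left out, 7 of the 25 kept their call each time, namely Dusp22, Dusp23, Dusp26, Ptpn7, Mknk2, Fkbp5 and Sgk1. The count that rose was 3 on removal of PBS library 2, 4 on removal of PBS library 4 and 6 on removal of PBS libraries 1 or 3 or of LPS libraries 3 or 4. The count that fell was 4 on removal of PBS library 2 and 7 on removal of PBS library 3 or of LPS libraries 2 or 3.

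The counts of each list here and below are to be read against the 9.49% of all tested genes called higher and the 7.45% called lower. Of 14 tested further dual-specificity phosphatases (of 19 listed) 2 rose and 2 fell, with a median of -0.012. Dusp26, a phosphatase known from nerve tissue, rose from 1.48 ± 0.445 to 5.67 ± 1.31 CPM (log2 difference 1.94, n = 4 per group, edgeR adjusted p = 0.00377), and Dusp23 rose by 0.64 (adjusted p = 0.0138). Dusp22, which acts in the JNK pathway, fell from 34.2 ± 2.26 to 20.4 ± 4.11 CPM (-0.75, adjusted p = 0.0103). Dusp15 fell by 1.79 (adjusted p = 0.0333), a call that outlasted only the removal of PBS library 4 or LPS library 1 and was lost in both limma-voom fits. Dusp9, the third cytoplasmic ERK phosphatase, fell below the filter at a mean of 0.198 CPM in PBS and 0.0495 CPM in LPS.

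Of 7 tested phosphatases of MAP kinases from other families (of 8 listed), 1 rose and 2 fell, with a median of -0.17. Ptpn7, a tyrosine phosphatase of blood cells that acts on ERK and p38, rose from 3.42 ± 1.19 to 11.5 ± 2.03 CPM (log2 difference 1.74, n = 4 per group, edgeR adjusted p = 0.00444). Ppm1d, a p53-induced phosphatase that acts on p38, fell by 0.45 (adjusted p = 0.0184), a call that ended on removal of PBS library 2. Ppp2cb, a catalytic subunit of protein phosphatase 2A, fell by 0.31 (adjusted p = 0.0419), a call that outlasted only the removal of PBS library 1 and was lost with no filter on low counts.

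The kinases that the phosphatases oppose are to be read against the 9.49% of all genes that edgeR called higher. Of 14 MAP kinases (median log2 fold change 0.15), the atypical ERK3 gene Mapk6 rose (from 114.2 ± 13.3 to 203.1 ± 59.0 CPM, log2 difference 0.83, n = 4 per group, edgeR adjusted p = 0.0231), and 0 fell (0 also at an unadjusted p under 0.05 and with DESeq2). At an unadjusted p under 0.05, 5 of the 14 were higher, a threshold for which no share of all genes is given here. DESeq2 called 4 of the 14 higher, beside 2099 of all 16117 genes. The call of Mapk6 ended on removal of PBS libraries 1, 2 or 3 or of LPS library 4. Of 7 MAP kinase kinases (median -0.13), Map2k1 rose by 0.33 (adjusted p = 0.0484), and 0 fell (0 also at an unadjusted p under 0.05 and with DESeq2). The call of Map2k1 outlasted only the removal of PBS library 3, and it was lost with RLE scaling, with no filter, with a filter of 1 CPM in 4 libraries and in both limma-voom fits.

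Of 20 tested kinases at the top of the cascade (of 21 listed), 1 rose and 2 fell, with a median of -0.080. Map3k8, the kinase that carries LPS signals to ERK in macrophages, rose from 7.02 ± 0.599 to 20.2 ± 12.8 CPM (log2 difference 1.53, n = 4 per group, edgeR adjusted p = 0.0287). Its value was 1.01 without LPS replicate 3, and removal of any PBS library ended the call, as did both limma-voom fits. Map3k13, a kinase of the JNK pathway, fell by 1.30 (adjusted p = 0.0199), a call that ended on removal of PBS library 2. Map3k10 fell by 0.53 (adjusted p = 0.0314), a call that outlasted only the removal of PBS library 4. Of 8 tested scaffolds (of 9 listed, median 0.14), Lamtor3 rose by 0.29 (adjusted p = 0.0294) and Iqgap1 fell by 0.32 (adjusted p = 0.0316), and both calls outlasted only the removal of PBS library 1 or LPS library 1.

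Downstream, 3 of 11 kinases activated by MAP kinases rose and 1 fell, with a median of 0.032. Mknk2, which phosphorylates the cap-binding factor eIF4E, fell from 768.7 ± 135.3 to 350.6 ± 66.1 CPM (log2 difference -1.13, n = 4 per group, edgeR adjusted p = 0.00446). Mapkapk2, through which p38 stabilises cytokine messages, rose by 0.37 (adjusted p = 0.0299), Mknk1 by 0.46 (adjusted p = 0.0437) and Rps6ka5 by 0.48 (adjusted p = 0.0397). Each of these 3 calls ended on removal of most single libraries. That of Mapkapk2 outlasted only the removal of LPS libraries 2 or 4, that of Mknk1 of LPS libraries 1 or 2 and that of Rps6ka5 of LPS library 1. The call of Mknk1 was also lost in both limma-voom fits and that of Rps6ka5 with quality weights. A further list held 6 RNA-binding proteins linked to message stability, among them the p38-controlled Zfp36, with a median of 0.033. Of these, 0 were called by edgeR (0 also at an unadjusted p under 0.05 and with DESeq2).

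**Figure D4:**
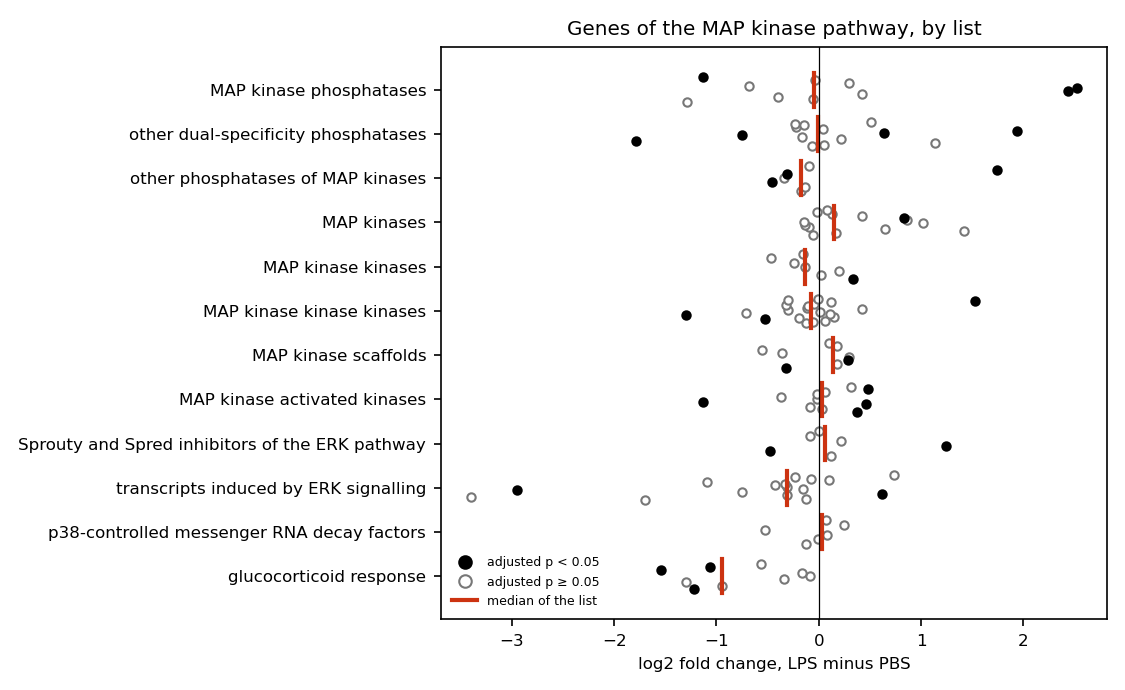
Log2 fold change, LPS minus PBS, of every tested gene of the phosphatases and of the 11 pathway lists (filled where the adjusted p passed the threshold), with the median of each list as a vertical bar. List medians lie between -0.94 (glucocorticoid response) and 0.15 (MAP kinases), and the phosphatases Dusp2 and Dusp4 have the highest values plotted.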

How the data were processed

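The deposited values are raw counts of reads for 29884 gene symbols in 8 libraries. The build mRatBN7.2 and the tools HTSeq, HISAT2, fastp and R 3.2.0 come from the submitters' processing notes, which give no role for each. The sources used here give neither the annotation nor the strand setting, so reads of overlapping or antisense genes could not be told apart. Columns were matched to samples by the library names in the labels, and LPS replicate 4 is the library numbered 5 there.

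From the counts, edgeR 4.0.16 in R 4.3.3 kept genes by filterByExpr by group, which left 16117. Libraries were scaled with TMM factors (trimmed mean of M values), and LPS was compared with PBS by robust quasi-likelihood F tests with no covariate. Adjusted p-values are Benjamini-Hochberg values over all 16117 genes, and a gene was called under 0.05. The SE was taken as the absolute log2 fold change over the square root of F. The test was also run on simulated counts with the same dispersion for every gene, which is no check on phosphatases that varied widely within a group. Alternatives were upper-quartile and RLE scaling, no filter, a filter of 1 CPM in 4 libraries, limma-voom 3.58.1 (plain or with quality weights), DESeq2 1.42.0, each library left out, the replicate number as a block and 2 pairs of libraries left out together. Those 2 pairs were chosen after seeing the data.

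The phosphatases, the 11 pathway lists and the 10 marker lists were chosen with earlier results of these data known. The results of 1 marker list are not reported here. Named were all 10 phosphatases, and from each pathway list the 2 called genes with the lowest adjusted p and every called gene where a list had 5 or fewer in a direction. The replicate numbers were not used as pairs. Any 2 libraries of a group differed beyond sampling noise (lowest ratio of chi-square to degrees of freedom 54.1).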

Additional observations from a re-analysis of the deposited data

Results flagged for a closer look

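A library was set apart where its gap to the nearest, over the range of its group of 4, passed Dixon's critical value, which chance gives in about 1 of 20 groups. Of 20 groups (10 phosphatases in PBS and in LPS), 2 were. Dusp6 in LPS replicate 3 was at 101.7 CPM, with the next LPS library at 63.2 CPM. Dusp10 in LPS replicate 4 was at 8.36 CPM, with the next at 3.75 CPM.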

How the results depend on the processing

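Over all genes, 904 to 1385 were higher and 563 to 1199 lower with 1 library left out, 2089 were lower with DESeq2, and 765 were lower when replicate 4 of each group, the library with the most Dusp1, was removed. With 1 library left out, the phosphatases that rose numbered 1 to 2 and those that fell 0 to 1, and the pathway genes 3 to 9 higher and 4 to 13 lower. A single phosphatase, Dusp2, rose with no filter on low counts (1), with limma-voom (1), with quality weights (1) and without both replicates 4 (1). 0 fell when PBS library 1 and LPS library 2 were both removed (edgeR, with 1 lower at an unadjusted p under 0.05, beside 1 called lower by DESeq2 on all libraries). In the latter setting 3 pathway genes were higher and 7 lower, and without both replicates 4, 3 were higher. The cause was not tested.

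Dusp2 was called under every alternative run, and Dusp1, Dusp5, Dusp6, Dusp7, Dusp10, Dusp14 and Dusp16 under none. Dusp7 ran from -0.11 to 0.010 and Dusp10 from -0.49 to 0.11 with 1 library left out. With PBS library 1 and LPS library 2 removed they were 0.013 and 0.0045, and without both replicates 4 Dusp7 was 0.020.

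With the replicate block, Dusp8 was -1.17 (adjusted p = 0.0577), so that 0 phosphatases fell (edgeR, with 4 lower at an unadjusted p under 0.05), and 1151 genes were higher and 845 lower. The calls of Ppm1d, Ppp2cb, Map3k8, Map3k10, Lamtor3, Iqgap1, Mapkapk2, Rps6ka5 and Spred2 were also lost with the block. With the block, Dusp1 was -1.11 (edgeR adjusted p = 0.0903) and Dusp5 was -0.59 (edgeR adjusted p = 0.0823). Correlations of same-numbered libraries' deviations over all genes were -0.13, -0.18, -0.087 and 0.21, which cannot settle pairing for single genes. The numbers were not taken as pairs in the main test. At 10 to 32 counts in PBS, Dusp2 is the member most limited by depth.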
